A study of Mus musculus with 14 samples.

Results

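Expression of 7 chemokine receptor genes was examined in cells sorted from mouse bone marrow: Ccr1, Ccr2, Ccr7, Cx3cr1, Cxcr2, Cxcr3 and Cxcr4. They were chosen by gene symbol, and all 7 were present among the 24980 genes of a dendritic cell table and the 17118 genes of a monocyte and macrophage table. Bulk RNA sequencing had been done on 14 libraries made after ribosomal RNA depletion. The 4 libraries labelled DC PAM3CSK4 were dendritic cells from mice given a single dose of PAM3CSK4, a synthetic lipopeptide agonist of Toll-like receptors 1 and 2, and the 4 labelled DC vehicle were from mice given vehicle alone. The 3 macrophage and 3 monocyte libraries were collected at baseline. Per the labels' protocol, all groups came from Cx3Cr1gfp/+ mice, in which 1 copy of Cx3cr1 carries a GFP reporter, although the design text calls the treated mice wild type. Dendritic cells were sorted as GFP-high, MHC class II-high and CD11c-high without Gr-1 or B220. Macrophages were sorted as GFP-negative, MHC class II-high and CD169-positive without Gr-1 or B220, and monocytes as GFP-high, CD115-positive cells that lacked B220, whether their Gr-1 was low or high. Age, dose and collection time are not given in the labels, nor is it said that replicates are separate mice. The p-values therefore reflect only how much these libraries vary, and that variation may be technical.

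Chemokine receptors are G protein-coupled membrane proteins that sense chemokines, signal mainly through inhibitory G proteins and steer migrating leukocytes. CCR2 takes monocytes out of the marrow towards CCL2 and CCL7, CCR1 binds CCL3, CCL5 and, in the mouse, CCL6 and CCL9, and CX3CR1 binds the membrane-bound chemokine CX3CL1. CCR7 leads maturing dendritic cells to lymph nodes along CCL19 and CCL21. CXCR4 holds blood cells in the marrow through CXCL12, CXCR2 is the main receptor by which neutrophils leave it, and CXCR3 marks T and NK cells and some dendritic cells that respond to CXCL9 and CXCL10.

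Levels are in CPM, reads relative to the library total, which are not divided by gene length. Where reads could be inferred from the spacing of low values, 1 CPM stood for 28.2 to 65.3 reads in DC PAM3CSK4 libraries and 37.9 to 71.6 in DC vehicle libraries. It stood for 33.4 to 75.1 reads in macrophages and 49.9 to 56.5 in monocytes. DC PAM3CSK4 replicate 4 stood apart: Itgax, the CD11c gene, was at 27.5 CPM there and at 181 to 283 CPM in PAM3CSK4 replicates 1 to 3. Its summed level of 11 neutrophil markers was 11477 CPM, against 414 to 1552 CPM in the other 7 dendritic cell libraries. In the macrophage libraries Siglec1 (CD169) was at 20.9 ± 3.75 CPM, against 17.0 ± 16.4 CPM in monocytes (SD, n = 3 each). The sums of 7 B and plasma cell markers, 481 to 7919 CPM in macrophages and 9.75 to 20.3 CPM in monocytes, did not overlap. All 5 erythroid, all 3 tested megakaryocyte and 4 of 5 progenitor markers were also higher in macrophages, beside 12.8% of all genes tested. A marker near 0 in monocytes, such as Gp9 (0.22 ± 0.26 CPM), was kept for testing only by its macrophage level and could only be called as higher.

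After PAM3CSK4, dendritic cells held less Ccr2 and less Cxcr3, and the other receptor genes did not pass the test with all libraries. Of the 6 receptor genes that no gate used, 2 were lower and 0 higher (limma with Benjamini-Hochberg adjustment over 11377 genes, threshold 0.05). Over all genes tested, 5.12% were called, 2.82% as higher and 2.29% as lower. For the same 2 of the 6 genes, Ccr2 and Cxcr3, the groups did not overlap, beside 14.8% of all genes tested. At an unadjusted p under the same threshold the 2 lower genes were joined by 2 higher ones, Cxcr2 and Ccr7. The share of all genes past the unadjusted threshold was not counted, here or below. Such counts therefore cannot be set beside the 5.12%. The median log2 change of the 6 genes outside the gates was 0.37, beside 0.20 for all genes tested.

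Ccr2 (chromosome 9, 124102183 to 124109140 in mm10, plus strand), the receptor for CCL2, was at 336, 249, 168 and 174 CPM in DC PAM3CSK4 replicates 1 to 4, against 592, 914, 1199 and 567 CPM in DC vehicle replicates 1 to 4. Every PAM3CSK4 library lay below every vehicle library, a separation in that direction seen in 4.68% of genes tested. The mean was 232 ± 78.7 CPM with PAM3CSK4 and 818 ± 299 CPM with vehicle (SD, n = 4 each), a log2 change of −1.80 ± 0.31 (SE) with limma adjusted p = 0.0090. In bulk libraries, fewer cells that carry a transcript and less transcript per cell cannot be told apart. The call held with any 1 library left out (adjusted p = 0.0049 to 0.041) and was lost once the filter on low values was dropped (adjusted p = 0.062). Beside it, the summed level of 8 monocyte markers was 537 to 881 CPM with PAM3CSK4 and 940 to 1326 CPM with vehicle. Of these 8 markers 2 fell (Ace and Fn1), and their part in the fall of Ccr2 was not tested. The sum of 8 conventional dendritic cell markers was also apart, at 277 to 1994 CPM with PAM3CSK4 and 3084 to 4161 CPM with vehicle. Of these, 2 fell (Cd209a and Zbtb46) and 0 rose, and their part in the receptor values was not tested either. The list holds H2-Ab1 and Itgax, genes of the MHC class II and CD11c gates. Most of the sum was H2-Ab1, at 885 ± 503 CPM with PAM3CSK4 and 2504 ± 522 CPM with vehicle (SD, n = 4 each).

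Cxcr3 (chromosome X, 101731535 to 101734147, minus strand) was at 3.96, 1.10, 2.71 and 0.950 CPM in DC PAM3CSK4 replicates 1 to 4, against 4.89, 9.42, 15.1 and 10.97 CPM in DC vehicle replicates 1 to 4. The groups did not overlap, though PAM3CSK4 replicate 1 and vehicle replicate 1 lay close together. The log2 change was −1.82 ± 0.37 (limma adjusted p = 0.019). It did not pass without vehicle replicate 2, 3 or 4 (adjusted p = 0.061, 0.064 and 0.058) or with no filter (adjusted p = 0.088). CXCR3 is carried by T and NK cells and by plasmacytoid dendritic cells. The T and NK marker sums overlapped, at 17.6 to 33.4 CPM with PAM3CSK4 and 21.2 to 77.0 CPM with vehicle, with 0 of 5 tested markers called at either the adjusted or the unadjusted threshold. Of 7 tested plasmacytoid dendritic cell markers 3 rose and 0 fell (Ly6d, Cox6a2 and Siglech). Cox6a2, at 0.10 ± 0.15 CPM with vehicle, passed the filter only through PAM3CSK4 libraries and could only be called as higher. The sum of 8 such markers overlapped, at 755, 263, 707 and 193 CPM in PAM3CSK4 replicates 1 to 4, against 247, 470, 539 and 514 CPM in vehicle replicates 1 to 4. Within each group the libraries lay in the same order by this sum as by Cxcr3. Most of the sum was Irf8, at 301 ± 171 CPM with PAM3CSK4 and 395 ± 125 CPM with vehicle (SD, n = 4 each). Irf8 was not called, and the 3 called markers rose where Cxcr3 fell. The part of plasmacytoid dendritic cell RNA in the level of Cxcr3 was not tested.

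**Figure D1:**
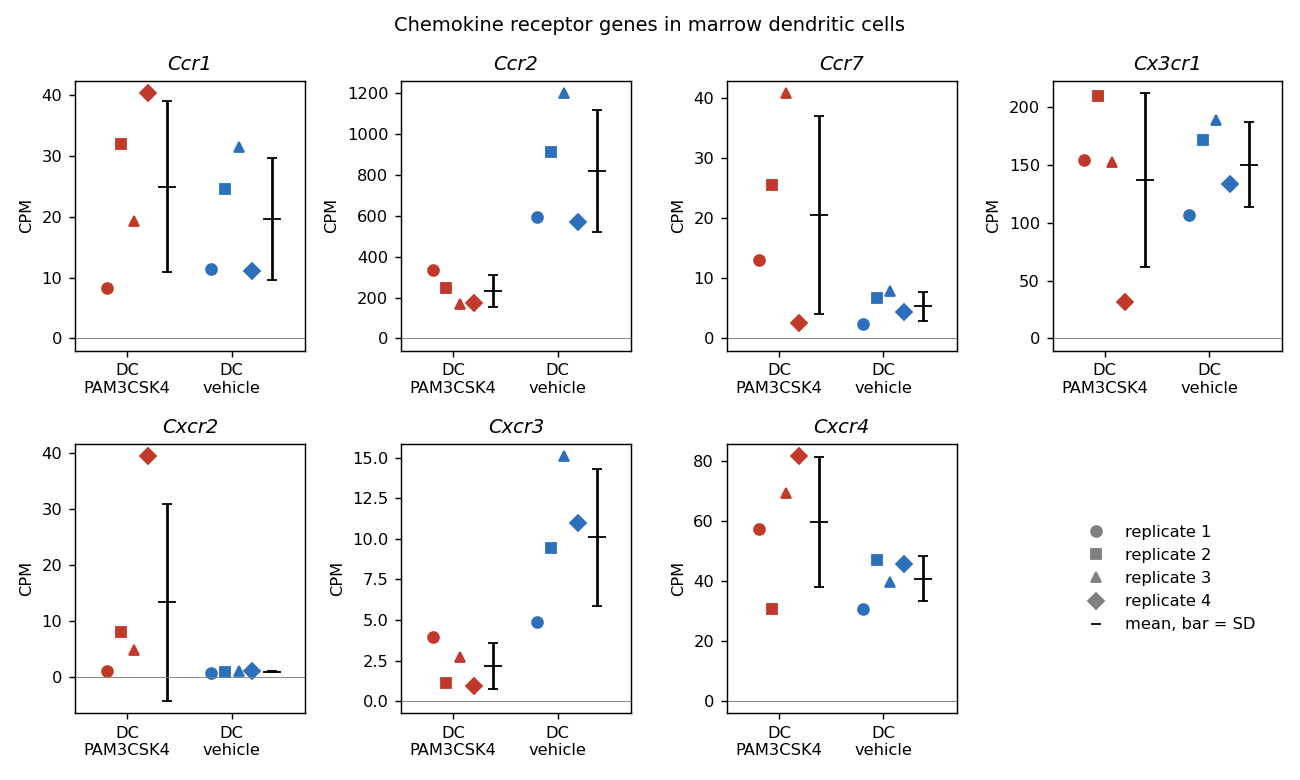
CPM of each receptor gene in the 4 DC PAM3CSK4 (red, left) and 4 DC vehicle (blue, right) libraries, on linear axes that differ between panels; symbols mark replicate numbers and black bars the mean ± SD. The groups are apart for Ccr2 and Cxcr3, and PAM3CSK4 replicate 4 (diamond) is lowest for Ccr7 and Cx3cr1 within its group and highest for Cxcr2.

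Ccr7 (chromosome 11, 99144199 to 99155077, minus strand), the lymph node homing receptor, was at 13.1, 25.6, 40.8 and 2.64 CPM in DC PAM3CSK4 replicates 1 to 4, against 2.37, 6.74, 7.87 and 4.46 CPM in DC vehicle replicates 1 to 4. In PAM3CSK4 replicates 1, 2 and 3 it lay above every vehicle library, and in replicate 4 within their range. With all libraries the log2 change was 1.37 ± 0.62 and did not pass (adjusted p = 0.19). Without PAM3CSK4 replicate 4 it was 2.07 ± 0.39 (adjusted p = 0.0050). The level of Cacnb3, a calcium channel subunit gene listed among migratory dendritic cell markers, followed that of Ccr7 most closely of all genes tested: their centred log2(CPM + 1) values differed by 0.17 on average over 8 libraries. The summed level of 6 migratory dendritic cell markers was 83.8, 224, 362 and 42.1 CPM in PAM3CSK4 replicates 1 to 4, against 36.2 to 118 CPM with vehicle. Of these 6 markers 0 were called, and 1 was higher at an unadjusted p under the threshold. Their part in the values of Ccr7 was not tested.

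Cxcr2 (chromosome 1, 74153994 to 74161246, plus strand), the neutrophil receptor for CXCL1 and CXCL2, was at 1.14, 7.97, 4.72 and 39.4 CPM in DC PAM3CSK4 replicates 1 to 4, against 0.769, 0.923, 1.05 and 1.15 CPM in DC vehicle replicates 1 to 4. Replicates 2, 3 and 4 with PAM3CSK4 lay above every vehicle library and replicate 1 within their range. The log2 change was 2.05 ± 0.66 (adjusted p = 0.089). Without PAM3CSK4 replicate 4 it was 1.28 (adjusted p = 0.062), and without PAM3CSK4 replicate 1 it was 2.70 and passed (adjusted p = 0.012). The 11 neutrophil markers summed to 511, 1552, 928 and 11477 CPM in PAM3CSK4 replicates 1 to 4, the same order of libraries as for Cxcr2. With vehicle the sums were 491, 674, 414 and 821 CPM in replicates 1 to 4, in another order than Cxcr2. Of 10 tested neutrophil markers 2 rose (Mmp8 and Csf3r) and 0 fell. Ly6g, whose product Gr-1 antibodies bind, was at 2.48 CPM in PAM3CSK4 replicate 4, at 0.189 to 0.264 CPM in the other PAM3CSK4 libraries and at no more than 0.201 CPM with vehicle. The 2 genes most like Cxcr2 over the 8 libraries were Wfdc21 and S100a9, a calprotectin subunit gene abundant in neutrophils, with mean differences of 0.14 and 0.27. The part of neutrophil RNA in the values of Cxcr2 was not tested.

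Cxcr4 (chromosome 1, 128588199 to 128592299, minus strand), the marrow retention receptor, was at 57.3, 30.8, 69.3 and 81.7 CPM in DC PAM3CSK4 replicates 1 to 4, against 30.6, 47.0, 39.7 and 45.7 CPM in DC vehicle replicates 1 to 4. PAM3CSK4 replicates 1, 3 and 4 lay above every vehicle library. The log2 change of 0.48 did not pass (adjusted p = 0.33), with a 95% interval of −0.16 to 1.11. Ccr1 (chromosome 9, 123962126 to 123968692, minus strand) was at 8.27, 32.0, 19.3 and 40.4 CPM with PAM3CSK4, against 11.4, 24.6, 31.5 and 11.1 CPM with vehicle. Both groups spread widely and overlapped, and the log2 change of 0.26 (95% interval −0.75 to 1.26, adjusted p = 0.76) was −0.033 without PAM3CSK4 replicate 4. Cx3cr1 (chromosome 9, 120048683 to 120068296, minus strand) was held up by the GFP gate in both groups. It was at 154, 209, 152 and 31.3 CPM in DC PAM3CSK4 replicates 1 to 4, against 107, 172, 189 and 133 CPM in DC vehicle replicates 1 to 4. Only PAM3CSK4 replicate 4 lay well below the rest, and no test is reported for this gene.

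**Figure D2:**
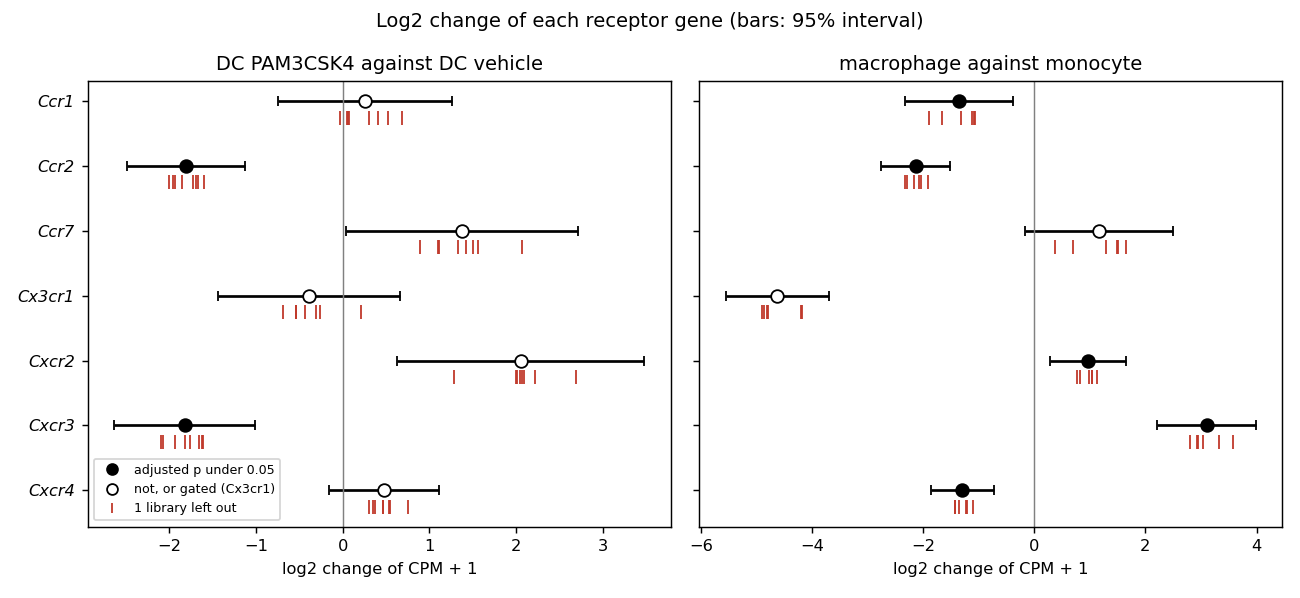
Log2 change of CPM + 1 for each receptor gene, DC PAM3CSK4 against DC vehicle (left) and macrophage against monocyte (right). Circles are the estimate with its 95% interval, filled where the adjusted p is under 0.05 (Cx3cr1 has no fill because a gate used it), and red ticks are the estimates with 1 library left out. Ccr2 lies to the left of 0 in both panels, at −1.80 and −2.13, whereas Cxcr3 lies at −1.82 in the left panel and 3.10 in the right.

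At baseline, macrophage libraries held less Ccr2, Cxcr4 and Ccr1 and more Cxcr3 and Cxcr2 than monocyte libraries. These 5 of the 6 receptor genes that no gate used passed the test, 2 of them higher and 3 lower, but the calls of Ccr1 and Cxcr2 were close to the threshold. Over all 12188 genes tested, 20.2% were called, 12.8% as higher and 7.42% as lower. For 4 of the 6, all but Ccr1 and Ccr7, the groups did not overlap, beside 34.2% of all genes tested. The median log2 change of the 6 genes outside the gates was −0.16, beside 0.10 for all genes tested.

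Ccr2 was at 140.3, 190.0 and 134 CPM in macrophage replicates 1 to 3, against 648, 914 and 518 CPM in monocyte replicates 1 to 3. The groups did not overlap, as in 13.8% of genes tested in that direction. The mean was 155 ± 30.7 CPM in macrophages and 694 ± 202 CPM in monocytes (SD, n = 3 each), a log2 change of −2.13 ± 0.28 (limma adjusted p = 0.00027). Cxcr4 was at 87.7, 61.5 and 98.0 CPM in macrophages, against 165, 223 and 217 CPM in monocytes. Here too every macrophage library lay below every monocyte library, and the log2 change was −1.29 ± 0.26 (limma adjusted p = 0.0038). The calls of Ccr2 and Cxcr4 held under each of the 13 alternatives tried, leaving out single libraries included. Summed over 8 monocyte markers, the level was 175 to 708 CPM in macrophages and 6864 to 8396 CPM in monocytes. Of these markers 7 fell and 0 rose, and their part in the lower receptor levels was not tested. Csf1r, the gene of the sorting marker CD115, was among the 7. It was at 37.1 ± 14.3 CPM in macrophages and 559 ± 273 CPM in monocytes (SD, n = 3 each). Monocytes were sorted as positive for CD115, so the gate bore on this fall.

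Cxcr3 was at 32.8, 27.3 and 10.7 CPM in macrophage replicates 1 to 3, against 2.55, 1.38 and 1.09 CPM in monocyte replicates 1 to 3. The lowest macrophage library lay well above the highest monocyte library, a separation in that direction seen in 20.4% of genes tested. The mean was 23.6 ± 11.5 CPM in macrophages and 1.67 ± 0.77 CPM in monocytes (SD, n = 3 each), a log2 change of 3.10 ± 0.41 (limma adjusted p = 0.00025) that passed under every alternative tried. Summed over the 9 T and NK cell markers in the table, the level was 340, 219 and 115 CPM in macrophage replicates 1 to 3, in the same order as Cxcr3. The progenitor marker sums, at 1245, 699 and 464.5 CPM, had that order too. In monocyte replicates 1 to 3 the T and NK cell sums were 18.5, 25.8 and 11.1 CPM, in another order than Cxcr3. Of those 9 markers 8 rose and 0 fell, beside 12.8% of all genes tested called as higher and 7.42% as lower. The NK receptor gene Ncr1 was at 60.2, 45.6 and 14.6 CPM in macrophages and at most 0.113 CPM in monocytes. The T cell receptor component Cd3e was at 5.94 to 12.9 CPM in macrophages and at most 0.619 CPM in monocytes. Both passed the filter of 1 CPM only through macrophage libraries and could only be called as higher, so the count is in part set by the filter. The genes most like Cxcr3 over the 6 libraries were Txk, a kinase of T and NK cells, and Ctla2b, with mean differences of 0.13 and 0.15. The part of T and NK cell RNA in the level of Cxcr3 was not tested.

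**Figure D3:**
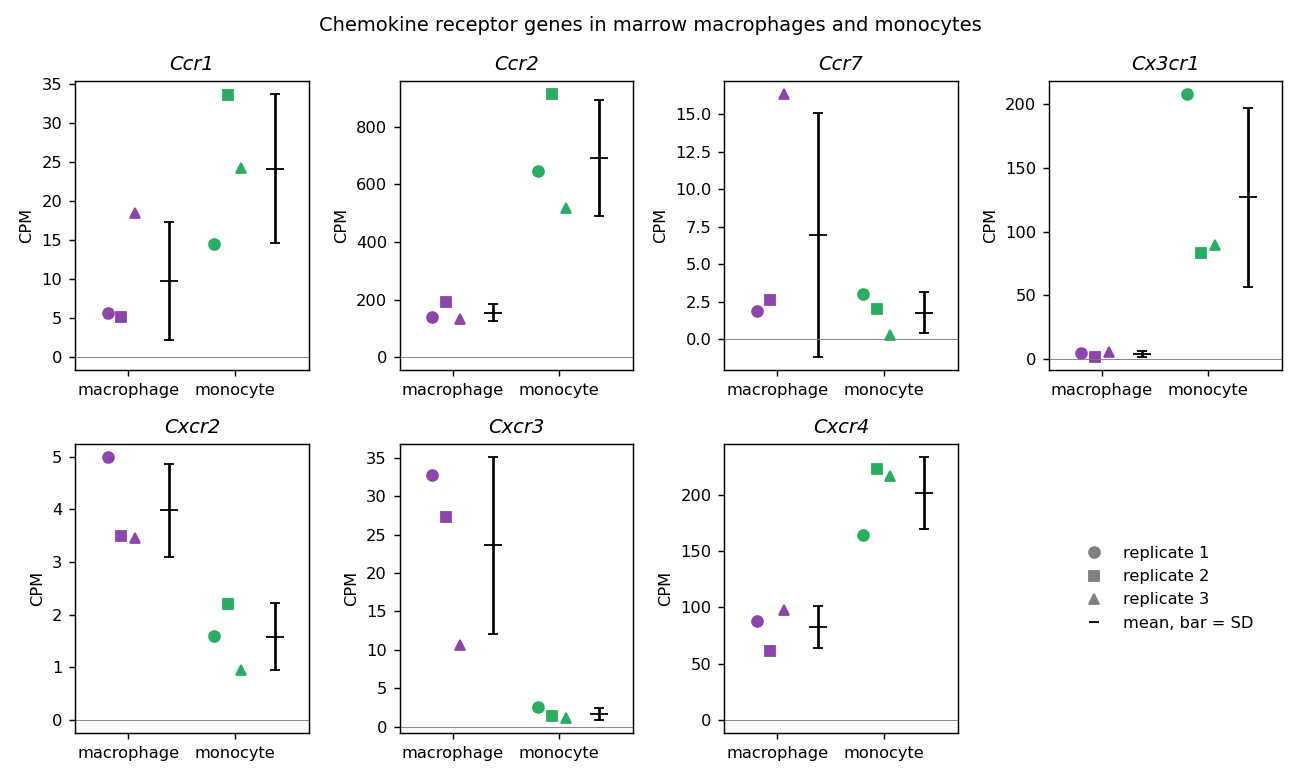
CPM of each receptor gene in the 3 macrophage (purple, left) and 3 monocyte (green, right) libraries, on linear axes that differ between panels; symbols mark replicate numbers and black bars the mean ± SD. Ccr2, Cxcr4 and the gated gene Cx3cr1 are lower and Cxcr3 and Cxcr2 higher in every macrophage library than in any monocyte library, and Ccr1 and Ccr7 overlap.

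Ccr1 was at 5.65, 5.18 and 18.5 CPM in macrophage replicates 1 to 3, against 14.5, 33.6 and 24.2 CPM in monocyte replicates 1 to 3. Macrophage replicate 3 lay inside the monocyte range. The log2 change was −1.36 ± 0.44 (limma adjusted p = 0.0495), and the call was lost without macrophage replicate 1 or 2 (adjusted p = 0.22 for each) and without monocyte replicate 2 or 3 (adjusted p = 0.13 and 0.091). Cxcr2 was at 4.996, 3.49 and 3.44 CPM in macrophages, against 1.59, 2.20 and 0.938 CPM in monocytes. The groups did not overlap, but the log2 change of 0.97 ± 0.31 (limma adjusted p = 0.046) fell to 0.26 after quantile normalization (adjusted p = 0.54). Its call was also lost without macrophage replicate 1, 2 or 3 (adjusted p = 0.15, 0.088 and 0.057) and without monocyte replicate 1 or 3 (adjusted p = 0.086 and 0.24). Neutrophil markers went both ways: of 10 tested, 6 rose, among them S100a8, Ngp and Ltf, and 4 fell, among them Mpo and Elane.

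Ccr7 was at 1.91, 2.63 and 16.3 CPM in macrophage replicates 1 to 3, against 3.06, 2.00 and 0.319 CPM in monocyte replicates 1 to 3. Macrophage replicate 3 was several times higher than any other library, and the remaining values overlapped. The log2 change of 1.17 ± 0.61 did not pass (adjusted p = 0.23), and it was 0.37 without macrophage replicate 3. With array quality weights it was 2.37 and passed (limma adjusted p = 0.0046). That library also held the most B and plasma cell marker RNA, 7919 CPM, against 2184 and 481 CPM in macrophage replicates 1 and 2. Its migratory dendritic cell sum was 51.3 CPM, against 38.1 and 18.6 CPM in macrophage replicates 1 and 2. The erythroid (506 CPM) and monocyte (708 CPM) marker sums were also highest there among macrophage libraries. The part of these lists in the value of Ccr7 was not tested. Cx3cr1 was at 5.06, 1.54 and 5.90 CPM in macrophages, which were sorted without its GFP reporter, against 208, 83.1 and 89.7 CPM in monocytes, which were sorted as high in it. The gates fixed this difference, and it is given as a check of the labels.

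**Figure D4:**
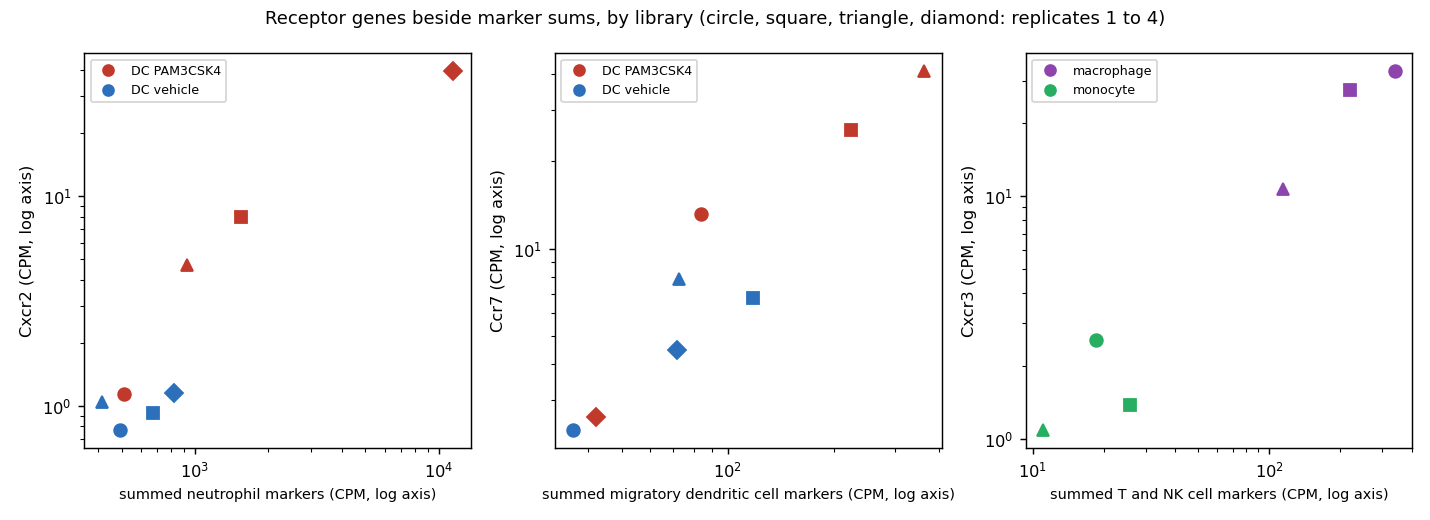
CPM of a receptor gene against the summed CPM of a marker list in each library, on log axes: Cxcr2 and neutrophil markers and Ccr7 and migratory dendritic cell markers in dendritic cells, and Cxcr3 and T and NK cell markers in macrophages and monocytes. Points are single libraries and symbols replicate numbers; PAM3CSK4 replicate 4 (red diamond) is at the upper right in the left panel (39.4 and 11477 CPM) and near the lower left in the middle panel (2.64 and 42.1 CPM).

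To compare receptor genes with each other, CPM was divided by the mean length of the complete protein-coding transcripts of each gene in GENCODE vM21, from 1.73 kb for Cxcr3 to 3.80 kb for Cx3cr1. The GFP gates bore on Cx3cr1 in every group, and 1 copy of it carries the reporter. Its place in each order below is therefore not a result. Ccr2 had the highest length-scaled level in DC PAM3CSK4 libraries, at 63.9 ± 21.7 CPM per kb, and in DC vehicle libraries, at 226 ± 82.4 CPM per kb (SD, n = 4 each). With PAM3CSK4, Cx3cr1 (36.0 ± 19.8) and Cxcr4 (33.1 ± 12.0) came next in CPM per kb and did not differ beyond their spread. Ccr7 (10.4 ± 8.32), Ccr1 (8.82 ± 4.98) and Cxcr2 (5.05 ± 6.69) followed, and Cxcr3 (1.26 ± 0.83) came last. The ranges of every pair of neighbours in this order overlapped. With vehicle the order of mean CPM per kb was Ccr2, Cx3cr1 (39.5 ± 9.73), Cxcr4 (22.6 ± 4.14), Ccr1 (6.94 ± 3.56), Cxcr3 (5.83 ± 2.44), Ccr7 (2.71 ± 1.24) and Cxcr2 (0.37 ± 0.06). Ranges of neighbours overlapped for Ccr1 and Cxcr3 and for Cxcr3 and Ccr7, and the others were apart.

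In macrophages Cxcr4 (45.6 ± 10.4 CPM per kb) and Ccr2 (42.7 ± 8.47) led with overlapping ranges, and Cxcr3 (13.6 ± 6.65) came next, below both. Ccr7 (3.52 ± 4.11), Ccr1 (3.45 ± 2.67), Cxcr2 (1.51 ± 0.34) and Cx3cr1 (1.10 ± 0.61) were the lowest there, and from Cxcr3 down the ranges of neighbours overlapped. In monocytes the order was Ccr2 (191 ± 55.6), Cxcr4 (112 ± 17.8), Cx3cr1 (33.4 ± 18.5) and Ccr1 (8.52 ± 3.38), with Cxcr3 (0.97 ± 0.45), Ccr7 (0.91 ± 0.70) and Cxcr2 (0.60 ± 0.24) last and overlapping, and the first 4 apart from each other and from these. The complete transcripts of Ccr2 run from 2.27 to 5.73 kb, so its scaled level depends on the transcript assumed: in macrophages it was 68.3 CPM per kb with the shortest, above Cxcr4, and below it with the longest.

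**Figure D5:**
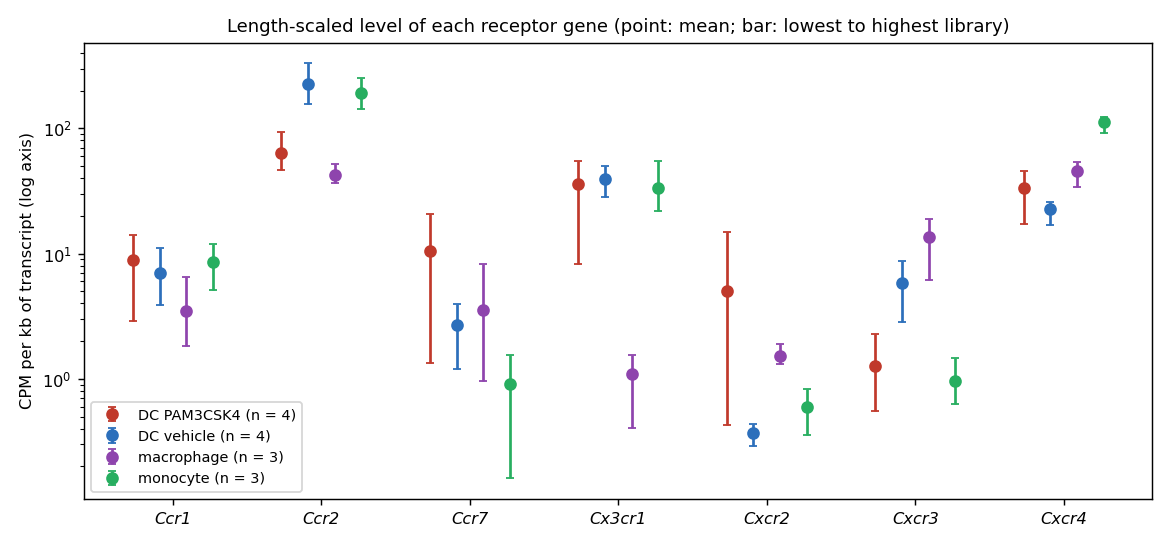
CPM per kb of transcript (log axis) for each receptor gene in DC PAM3CSK4, DC vehicle, macrophage and monocyte libraries; points are means and bars run from the lowest to the highest library. Dendritic cells and the other cells come from separately made tables, so levels compare within a table only. Ccr2 leads in both dendritic cell groups and in monocytes, and Cxcr4 and Ccr2 lie together in macrophages. The GFP gates bore on Cx3cr1 in every group.

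The genes closest to the other members in pattern, by the mean absolute difference of centred log2(CPM + 1) values, were partly of known myeloid function. Not all are given. Values were centred over both groups together, so genes with a like change between the groups lie close to each other. Over the 8 dendritic cell libraries Ccr2 was closest to the chemokine gene Ccl9 (0.19) and to Pgap1 (0.22), and Cxcr3 to Aldoc (0.15), a glycolytic aldolase, and Tnni2 (0.23). Over the 6 macrophage and monocyte libraries Ccr2 was closest to Tlr13 (0.09), a receptor for bacterial RNA, and Zeb2 (0.15), a transcription factor of myeloid cells. Cx3cr1 was closest to Csf1r (0.41), the gene of the sorting marker CD115, and Ace (0.41). Ccr1 was closest to Gapt (0.11) and Pgap1 (0.13), Cxcr4 to Racgap1 (0.07) and Kctd20 (0.08), and Cxcr2 to Zfp874b and Ick (0.06 each).

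Other chemokine receptor genes, with the chemerin receptor Cmklr1 counted among them, differed mainly between the baseline populations. In dendritic cells 8 of the 18 listed passed the filter and 0 were called in limma, with 1 higher and 2 lower at an unadjusted p under the threshold.

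In macrophages against monocytes, 8 of 9 tested genes of that list rose and 0 fell, with a median log2 change of 2.77. Over all genes tested, 12.8% were called as higher and 7.42% as lower, with a median of 0.10. Listed genes near 0 in monocytes, such as Ccr10 (0.23 ± 0.23 CPM there), passed the filter only through macrophage libraries. They could only be called as higher, so the count and median of the list are in part set by the filter. Xcr1, a receptor of cross-presenting dendritic cells, was at 73.8, 148 and 29.1 CPM in macrophages and at most 1.10 CPM in monocytes. Ccr3, the eosinophil eotaxin receptor, was at 18.4, 26.2 and 30.2 CPM in macrophages and at most 1.46 CPM in monocytes. Cxcr6, of T and NK cells, was at 30.1, 16.3 and 15.3 CPM in macrophages and 2.03 to 2.74 CPM in monocytes. Ccr9, of plasmacytoid dendritic cells and gut-homing lymphocytes, Ccr10, of plasma cells, and the atypical receptor Ccrl2 rose by 3.04, 2.77 and 1.22 on the log2 scale. Conventional dendritic cell markers, at 634 to 1635 CPM in macrophages and 125 to 967 CPM in monocytes when summed, overlapped. In macrophage replicates 1 to 3 that sum was 999, 1635 and 634 CPM, the same order as for Xcr1, which is itself on the list. Most of it was H2-Ab1, a gene of the MHC class II gate of macrophages, at 548, 933 and 370 CPM. In monocyte replicates 1 to 3, which had no such gate, H2-Ab1 was at 596, 75.8 and 42.2 CPM. Of these 8 markers 3 rose (Xcr1, Clec9a and Zbtb46) and 1 fell (Cd209a). Clec9a, another gene of cross-presenting dendritic cells, was at 82.8 ± 69.2 CPM in macrophages and 14.3 ± 7.53 CPM in monocytes (SD, n = 3 each), with limma adjusted p = 0.013. The T and NK cell and B and plasma cell sums, given above, were apart between the groups. The part of these 3 marker lists in the receptor values was not tested.

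Of 22 ligand genes of the 7 receptors, 10 were tested in dendritic cells, where 1 rose and 2 fell, beside 5.12% of all genes called. Ccl6 and Ccl9, ligands of CCR1, fell to 42.0 ± 21.3 and 74.0 ± 21.6 CPM with PAM3CSK4, against 155 ± 38.9 and 243 ± 73.3 CPM with vehicle (SD, n = 4 each). Ccl2, the ligand of CCR2, rose to 7.69 ± 6.94 CPM with PAM3CSK4, against 0.70 ± 1.12 CPM with vehicle (log2 change 2.19 ± 0.55, limma adjusted p = 0.042). For Ccl2 the groups overlapped, the vehicle mean lay below 1 CPM and the call was close to the threshold. In macrophages against monocytes, 9 ligand genes were tested, and 5 rose and 2 fell, beside 20.2% of all genes called. The 6 with the smallest p were Ccl9 and Ccl6, which fell by 2.57 and 1.89 on the log2 scale, and Ccl5, Cxcl9, Ccl4 and Ccl3, which rose by 3.42, 3.09, 2.01 and 1.20. Cxcl9, a ligand of CXCR3, was at 15.8 ± 10.1 CPM in macrophages and 0.88 ± 0.73 CPM in monocytes (SD, n = 3 each).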

How the data were processed

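The authors deposited 2 tables of values per gene under the name FPKM. Low values of each library, less 0.0001, mostly lie on multiples of 1 step, in genes of short and of long genomic span. They are therefore treated as CPM, read from the values and not stated per the labels. Transcript length was not used in that split. Of the values up to 50 steps, 65.9% to 68.9% in dendritic cell libraries came within 0.05 steps of a whole number, and 88.0% to 90.9% in macrophage and monocyte libraries, too few to recover counts. In dendritic cell libraries the share was 75.1% to 80.9% for genes of short span and 57.0% to 60.5% for long span. In macrophage and monocyte libraries it was 86.1% to 90.3% and 90.8% to 93.0%. On that scale the listed genes hold 35.0% to 57.9% of each library's total. Per the submitters' processing notes, the build was mm10 and the tools STAR 2.5.3a and Partek, with roles, annotation and strand setting not given in the sources used here. Both GENCODE and the tables place the receptor genes other than Cx3cr1 alike, apart from alternative ends. GENCODE runs Cx3cr1 from 119901616 to 120069879, over other genes such as Wdr48 and Xirp1, and the tables from 120048683 to 120068296. At the coordinates of the dendritic cell table no other gene in it overlaps any of the 7. Lengths come from GENCODE vM21.

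Samples were grouped by their titles. Another 3 columns of the monocyte and macrophage table were not used, because no treatment can be read from their names, so dendritic cells were not tested against the other cells. Each table had its own two-sided limma fit (version 3.58.1, R 4.3.3, eBayes with trend) to log2(CPM + 1), and p-values were adjusted by Benjamini-Hochberg across every gene that entered it. On this scale the change of low genes is understated. The filter kept genes at or above 1 CPM in 4 or more dendritic cell libraries, or in 3 or more of the others, and all 7 receptor genes passed it in both tables. Genes that passed it through 1 group alone could only be called as higher in that group. The values of 1 listed gene are not reported here. The code was tested on simulated data. Exact permutation of single genes could not go below p = 0.10 for 3 against 3 libraries, and below 0.0286 for 4 against 4. The text names the 7 genes, up to 6 called members per list in order of p, and the 2 genes nearest in pattern (smallest mean absolute difference of centred log2 values), of which some are given. The genes and lists were chosen with earlier results of these data known. Cx3cr1 was left out of receptor counts because gates used it. Genes of sorting markers on the marker lists, such as Csf1r, Itgax, H2-Ab1 and Ly6g, were kept. Alternatives were a pseudocount of 0.1, no filter, 3 rescalings, array quality weights, a replicate block and each library left out.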

Additional observations from a re-analysis of the deposited data

How the results depend on the processing

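In dendritic cells the 2 receptor calls became 0 with no filter on low values (limma; 3 passed at an unadjusted p under the threshold) and 4 with array quality weights, and they numbered 1 to 3 with 1 library left out. With array quality weights Ccr7 (log2 change 1.90, limma adjusted p = 0.014) and Cxcr2 (1.68, adjusted p = 0.021) passed in dendritic cells, and Ccr7 (2.37, adjusted p = 0.0046) in macrophages, where 6 receptors were then called. In macrophages against monocytes the 5 receptor calls became 3 with a pseudocount of 0.1, with no filter, after median centring and after quantile normalization, and they numbered 3 to 4 with 1 library left out. Without PAM3CSK4 replicate 4 the log2 change in dendritic cells turned to −0.033 for Ccr1, which ran to 0.69 with other libraries left out, and to 0.21 for Cx3cr1, which ran to −0.69. Of 203 alternative values of single receptor genes over both comparisons, 170 kept their direction and their side of the threshold, 24 no longer passed, 6 passed only in the alternative, 2 are the turned directions just given, and 1, of Cx3cr1, moved by more than its SE.

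Over all genes, the 582 calls in dendritic cells became 166 with no filter, 1649 with array quality weights and 976 with the replicate block, and ran from 184 (without vehicle replicate 2) to 1008 (without PAM3CSK4 replicate 1), and leaving out vehicle replicate 1, 3 or 4 gave 206, 226 or 261 and PAM3CSK4 replicate 3 gave 258. The 2468 calls in macrophages against monocytes became 5471 with array quality weights. Rises were 55.2% of calls in dendritic cells and 63.4% in macrophages as deposited, 41.4% and 72.9% after rescaling to a common total, 29.9% and 51.3% after median centring and 35.1% and 44.8% after quantile normalization. As deposited, all genes had median log2 changes of 0.20 and 0.10, and of −0.02 for each after median centring, where Ccr2 had log2 changes of −2.02 and −2.26 and Cxcr3 of −2.04 and 2.98. The cause of these shifts was not tested.

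Replicate numbers are shared between groups, but the labels do not say that they pair mice. Deviations from the group mean correlated between same-numbered libraries at 0.03, 0.29, −0.12 and 0.30 in dendritic cells and 0.18, 0.08 and 0.12 in macrophages and monocytes, where every library correlated best with its own number. With the replicate block Cxcr2 passed in dendritic cells (adjusted p = 0.045) and did not pass in macrophages (adjusted p = 0.052), and no other receptor call changed. Depth limits the lowest values most, such as Ccr7 in monocyte replicate 3, which stands for about 17 reads.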

Other observations

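Genes that act below the receptors mostly fell where they were called between the baseline populations. Of 30 tested genes of G protein signalling and receptor desensitization, 1 rose and 7 fell in macrophages against monocytes. Over all genes tested 20.2% were called, 12.8% as higher and 7.42% as lower. The median log2 change of the 30 was −0.55, beside 0.10 for all genes tested. Gnai2, the inhibitory G protein subunit through which chemokine receptors signal, was at 281 ± 37.6 CPM in macrophages and 604 ± 96.4 CPM in monocytes (SD, n = 3 each). Pik3r6, a subunit of the lipid kinase PI3K gamma, fell by 2.82 on the log2 scale and the receptor kinase gene Grk5 by 1.62, whereas Rgs1, which ends G protein signals, rose by 4.33. Rac1 and Vav1, which act on the actin skeleton of moving cells, fell by 0.84 and 0.79. In dendritic cells after PAM3CSK4, 2 of the 30 fell and 0 rose in limma, near the 5.12% of all genes tested that were called. At an unadjusted p under the threshold 8 were higher and 4 lower, the 2 called genes among the lower. No share of all genes was counted at that unadjusted threshold. Grk5 fell to 7.86 ± 2.33 CPM with PAM3CSK4, against 20.1 ± 2.30 CPM with vehicle, and the phospholipase gene Plcb2 to 46.0 ± 14.5 CPM, against 105 ± 16.7 CPM with vehicle (SD, n = 4 each).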
